A study of Homo sapiens with 66 samples.

Results

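The genes described are 10 whose products form or restrain the positive transcription elongation factor P-TEFb and the super elongation complex. HEXIM1, LARP7 and MEPCE belong to the inhibitory 7SK particle, CDK9, CCNT1 and CCNT2 are the kinase and the cyclins of P-TEFb, and AFF1, AFF4, ELL and ELL2 belong to the super elongation complex. They were chosen by gene symbol, through the GENCODE 29 names of the Ensembl identifiers, and each symbol matched a single entry among the 13331 genes of the count table. All 10 passed the filter on low counts.

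P-TEFb phosphorylates paused RNA polymerase II and its pausing factors, which lets the polymerase enter productive elongation. Much of the cell's P-TEFb is held inactive by HEXIM1 on the 7SK RNA, a small noncoding RNA that LARP7 binds at its end and that MEPCE caps, and active P-TEFb is found in the super elongation complex, which is built on the scaffolds AFF1 and AFF4. The HEXIM1 transcript is known to rise after BET bromodomain inhibitors and is used as a marker of their action. The 7SK RNA is not polyadenylated and is not measured by sequencing from poly(A) tails.

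The 250 bases before the RefSeq start of HEXIM1 (GRCh38.p14, chr17:45148225-45148474, plus strand) are shown because HEXIM1 was the member that rose in the largest number of lines. Capitals mark TATAAA and CCAAT (or its complement ATTGG).
HEXIM1: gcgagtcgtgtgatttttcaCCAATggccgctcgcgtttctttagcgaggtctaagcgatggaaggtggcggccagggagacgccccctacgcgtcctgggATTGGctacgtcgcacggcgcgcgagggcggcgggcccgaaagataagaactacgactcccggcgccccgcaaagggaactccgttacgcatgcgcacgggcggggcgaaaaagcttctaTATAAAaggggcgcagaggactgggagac
TATAAA, searched on both strands, lay 24 to 29 bases before the start, and it was present in 10.7% of the 35116 RefSeq windows of this length. CCAAT was found on the plus strand at 226 to 230 bases and on the minus strand at 145 to 149 bases before the start, and 32.0% of windows held it. GGGCGG occurred on the plus strand at 46 to 51 and 119 to 124 bases before the start, as it did somewhere in 42.6% of windows, and none of these matches overlapped. A match is a run of letters and does not show that a factor binds.

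The study measured 3' mRNA (QuantSeq, which counts reads from the 3' ends of polyadenylated transcripts) in KBM7, a near-haploid human line from chronic myeloid leukaemia, after 6 h of treatment. Lines in which MED1, MED6, MED10, MED12, MED14, MED26, MED28, MED31 or CDK9 carried a dTAG received 500 nM dTAG7 or DMSO. Wild-type cells received 500 nM dTAG7, 100 nM dBET6, 250 nM THAL-SNS-032 or DMSO. Each of the 22 groups had 3 libraries, lettered A, B and C, for 66 in all. MED1 to MED31 are subunits of Mediator, the complex that links transcription factors to RNA polymerase II. dTAG7 recruits a dTAG-fused protein to a ubiquitin ligase for degradation. THAL-SNS-032, which the labels also write as dCDK9, degrades CDK9, and dBET6 is a degrader of BET proteins. All of these act on proteins, so the CDK9 transcript is no check of the CDK9 labels, and loss of the proteins is not analysed here. The 3 libraries of a group came from wells of a culture plate, and nothing in the labels says that the cultures were independent, so the p-values measure the spread between these libraries, which may be technical. Whether a tagged line is 1 clone is not given in the sources used here.

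Depth ranged over 439261 to 4337368 counts of endogenous genes (median 3016290.5) and 10950 to 72684 counts of spike-ins. Equal amounts of spike-in RNA had been added per lysate, and counts were scaled to spike-in totals. The resulting values, called CPM here, therefore follow the RNA per well. Fewer cells and less RNA per cell cannot be told apart on this scale. A second scaling, TMM (edgeR's trimmed mean of M values), sets levels against the bulk of the other transcripts. Endogenous RNA relative to spike-ins was 19.2% of that in the line's own DMSO with dTAG7 in the CDK9 line, 11.3% with dBET6, 17.6% with THAL-SNS-032 and 63.2% with dTAG7 in the MED14 line, and 82.3 to 106% in the other comparisons. The median log2 fold change over all genes on the spike-in scale was -2.93, -3.67, -2.86 and -0.69 in those same 4 comparisons, and lay between -0.27 and 0.09 in the others. Under TMM these medians lay between -0.11 and 0.03. The progenitor markers KIT, CD33, CD34, GATA2, MYB, TAL1 and LYL1 were detected in all 30 DMSO libraries, and the B-cell marker MS4A1 was at 0 in 15 of them. Replicate A of MED6 dTAG7 and replicate B of MED12 DMSO stood furthest apart from their group, with a chi-square per degree of freedom of 14.8 and 8.46 or more against each of the other libraries of the group, where the median over all replicate pairs was 1.93. Smaller departures included replicate C of MED12 dTAG7 (4.90 or more) and replicate A of MED26 DMSO (4.19 or more), MED31 DMSO (3.93 or more) and MED31 dTAG7 (3.73 or more). The HEXIM1 and LARP7 calls in the MED26 and MED31 lines held with any single library left out. Without MED6 dTAG7 replicate A the log2 fold changes in the MED6 line were 1.28 for HEXIM1 and -0.62 for LARP7, with the same 2 genes called, and without MED12 DMSO replicate B no member was called in the MED12 line.

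On the spike-in scale the 10 genes fell together when CDK9 or the BET proteins were targeted. With dTAG7 in the Mediator lines 5 of them were called in the MED14 line and at most 3 in any other. HEXIM1 and LARP7 moved in opposite directions in the MED6, MED10, MED14, MED26 and MED31 lines, while in the MED28 line only HEXIM1 was called. Calls were made at adjusted p-values under 0.05 (edgeR quasi-likelihood F test, Benjamini-Hochberg over 12515 genes). With dTAG7 in the CDK9 line 10 of 10 were called lower, beside 95.3% of all genes tested, and the same count of 10 was called lower with dBET6, beside 97.1%, and with THAL-SNS-032, beside 96.2%. A count of 10 was therefore close to the background in these 3 comparisons. With dTAG7 in the MED14 line 1 member was called higher, beside 1.7% of all genes, and 4 lower, beside 63.3%. In the MED10 line 2 were called higher and 1 lower, beside 2.71% and 19%. In the MED6 line the count was 1 in each direction, beside 0.775% higher and 18.4% lower. The MED26 line had 1 in each direction, beside 0.264% and 2.88%, and the MED31 line 1 in each direction, beside 0.495% and 2.61%. In the MED28 line 1 was called higher and none lower, beside 0.775% and 4.07%. In the MED12 line edgeR called 0 members, beside 1.57% higher and 3.4% lower, while 4 members had an unadjusted p under 0.05 and DESeq2 and limma called 0. For dTAG7 in the MED1 line edgeR called 0 members beside 0% of all genes. There 0 members and 394 genes had an unadjusted p under 0.05, and DESeq2 called 0 of either. For dTAG7 in wild-type cells, the control for the compound itself, edgeR again called 0 members beside 0% of genes, 1 member and 490 genes had an unadjusted p under 0.05, and DESeq2 called 0.

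**Figure D1:**
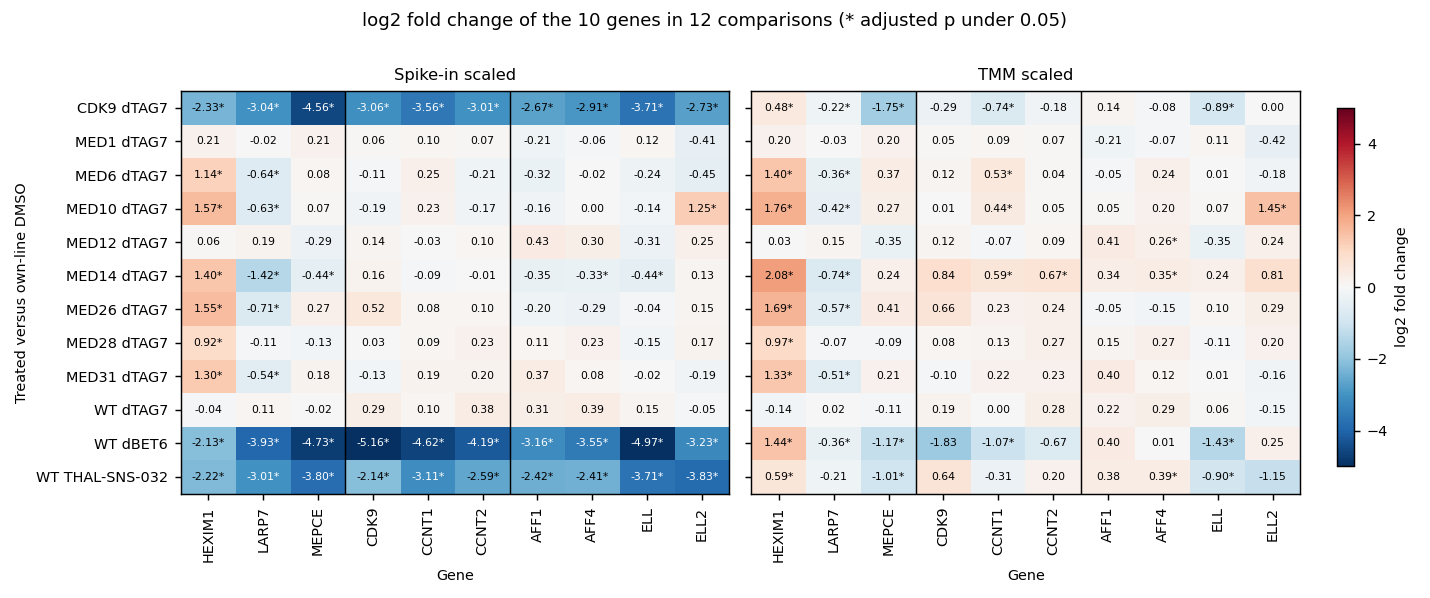
Log2 fold change of the 10 genes (columns) in the 12 comparisons of a treatment with its own line's DMSO (rows), on the spike-in scale in one panel and under TMM in the other, with an asterisk at an adjusted p under 0.05. With CDK9 or BET proteins targeted all 10 genes were lower on the spike-in scale (-2.13 to -5.16, the last being CDK9 with dBET6, which rests on 3 counts), while under TMM HEXIM1 was above 0 in all 3, and AFF1 too, and some of the CDK9, CCNT2, AFF4 and ELL2 values, and with Mediator subunits targeted HEXIM1 was the highest of the members called (0.92 to 1.57).

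HEXIM1, the protein that inhibits the P-TEFb kinase on 7SK RNA, rose in 6 of the 8 Mediator lines. Its identifier is ENSG00000186834, and the gene lies at chr17:45148502-45152101 on the plus strand of hg38. Its log2 fold changes of 0.92 to 1.57 correspond to levels higher than those of its own DMSO in every library of those 6 lines.

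In the MED10 line HEXIM1 had 133, 156 and 127 CPM with dTAG7 (replicates A, B and C), against 38.5, 49.3 and 50.8 CPM with DMSO. In the MED26 line the values were 127, 120.5 and 116 CPM with dTAG7, against 33.0, 54.5 and 36.9 CPM with DMSO. With MED14 as the tagged subunit HEXIM1 had 113, 122 and 119 CPM after dTAG7, against 46.5, 44.5 and 42.9 CPM in DMSO. In these 3 lines every dTAG7 library lay far above every DMSO library. The log2 fold changes were 1.57 ± 0.17 (SE) in the MED10 line, 1.55 ± 0.17 in the MED26 line and 1.40 ± 0.16 in the MED14 line (edgeR adjusted p 7.44e-11, 1.63e-09 and 8.54e-11, n = 3 libraries per group). The MED14 rise stood against a median of all genes of -0.69, and HEXIM1 lay above 99.4% of genes there, above 99.8% in the MED26 line and above 99.5% in the MED10 line.

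In the MED31 line HEXIM1 had 110.3, 139 and 133 CPM with dTAG7, against 54.1, 50.0 and 51.0 CPM with DMSO. The MED6 line gave 85.3, 114 and 120.5 CPM with dTAG7, against 52.8, 46.0 and 47.1 CPM with DMSO, the lowest of its dTAG7 values being that of replicate A. In the MED28 line the levels were 91.8, 91.2 and 75.6 CPM with dTAG7, against 57.0, 37.1 and 42.8 CPM with DMSO. None of these 3 pairs of groups overlapped, though the gap was narrowest in the MED28 line. HEXIM1 log2 fold changes were 1.30 ± 0.16, 1.14 ± 0.17 and 0.92 ± 0.17 in the MED31, MED6 and MED28 lines, with edgeR adjusted p-values of 2.71e-07, 2.89e-06 and 0.00023. When the 6 MED6 libraries were fitted by themselves the HEXIM1 call was lost (1.14, edgeR adjusted p 0.0544).

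The other 2 Mediator lines and untagged cells showed no called change of HEXIM1. In the MED1 line it had 45.6, 52.2 and 46.8 CPM with dTAG7, against 49.0, 33.6 and 42.4 CPM with DMSO, and in the MED12 line 38.5, 41.8 and 38.9 CPM with dTAG7, against 42.7, 34.7 and 36.5 CPM with DMSO. Wild-type cells had 60.8, 30.7 and 49.4 CPM with dTAG7, against 39.3, 54.4 and 52.0 CPM with DMSO, and each of these 3 pairs overlapped. Fitted log2 fold changes were 0.21 ± 0.18 for MED1, 0.06 ± 0.18 for MED12 and -0.04 ± 0.18 for wild-type cells. Their 95% intervals were -0.15 to 0.57, -0.30 to 0.42 and -0.39 to 0.31, so that a rise of the size seen in the MED10 or MED14 line lay outside all 3.

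When CDK9 or the BET proteins were targeted, HEXIM1 fell on the spike-in scale and had the other sign under TMM. The CDK9 line had 5.77, 9.60 and 11.55 CPM with dTAG7, against 49.2, 40.9 and 36.9 CPM with DMSO. Wild-type cells had 10.8, 11.3 and 10.8 CPM with dBET6 and 9.96, 9.87 and 11.5 CPM with THAL-SNS-032, against 39.3, 54.4 and 52.0 CPM with DMSO. All treated libraries were below all DMSO libraries on this scale, with log2 fold changes of -2.33 ± 0.22, -2.13 ± 0.19 and -2.22 ± 0.20 for the CDK9 line, dBET6 and THAL-SNS-032 (edgeR adjusted p 4.73e-15, 7.63e-16 and 6.18e-16). Under TMM the direction turned in all 3, with log2 fold changes of 0.48 ± 0.20, 1.44 ± 0.17 and 0.59 ± 0.18 (edgeR adjusted p 0.042, 5.14e-10 and 0.00891). HEXIM1 had 141, 136 and 103 TMM-scaled CPM with dBET6 and 63.4, 80.4 and 64.2 with THAL-SNS-032, against 39.0, 47.7 and 52.7 with DMSO, with no overlap. In the CDK9 line the TMM-scaled values of 44.98, 66.6 and 74.8 CPM with dTAG7 overlapped the 48.7, 40.9 and 38.1 CPM with DMSO. As a plain share of the library HEXIM1 had 10.4, 9.87 and 8.48 counts per 100000 endogenous counts with dBET6 and 5.43, 6.33 and 5.74 with THAL-SNS-032, against 3.94, 4.96 and 5.47 with DMSO, and in the CDK9 line 3.29, 5.24 and 5.84 with dTAG7, against 5.07, 4.20 and 3.87 with DMSO. The share was above every DMSO library with dBET6 alone, and overlapped DMSO with THAL-SNS-032 and in the CDK9 line. HEXIM1 lay above 93.5% of all genes by log2 fold change with dBET6, above 84.8% with THAL-SNS-032 and above 75.3% with dTAG7 in the CDK9 line.

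**Figure D2:**
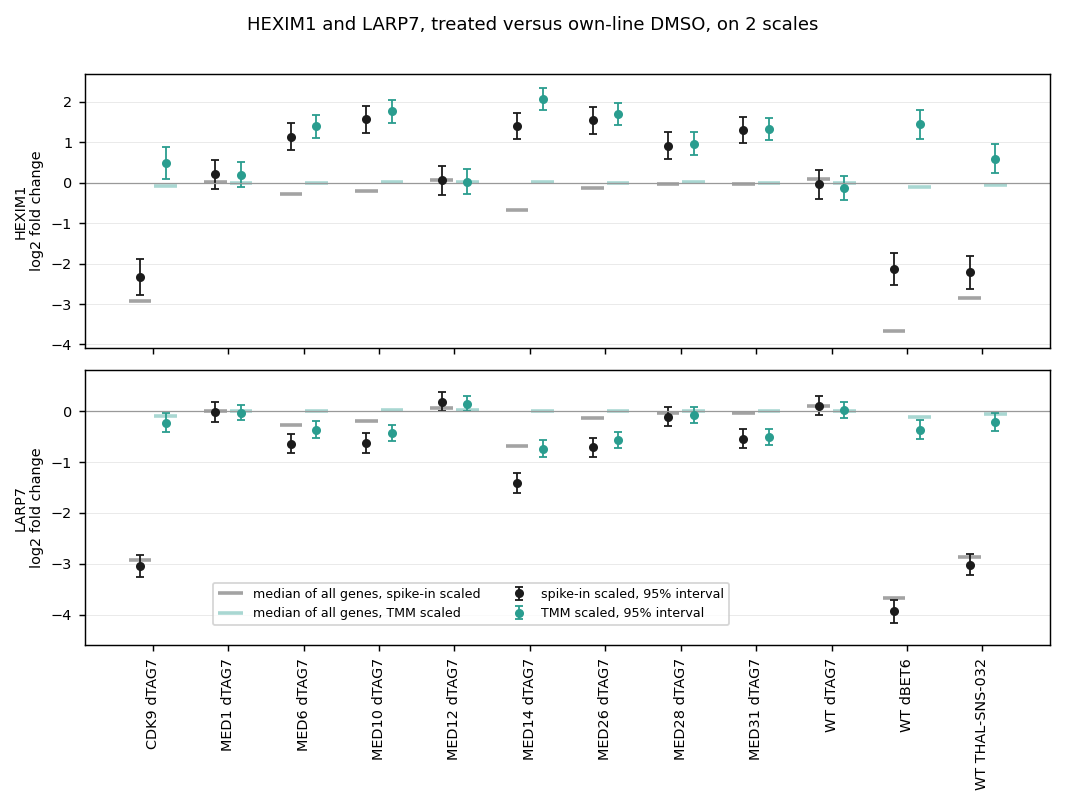
Log2 fold change (y axis) of HEXIM1 and of LARP7 in the 12 comparisons of a treatment with its own line's DMSO (x axis), as points with 95% intervals on the spike-in and TMM scales, with bars at the median of all genes on each scale. HEXIM1 was called higher in 6 Mediator lines on both scales and changed sign between scales with CDK9 or BET proteins targeted (-2.33, -2.13 and -2.22 against 0.48, 1.44 and 0.59). LARP7 was below 0 in those comparisons on both scales.

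LARP7, which binds and stabilises 7SK RNA, fell in 5 of the 6 Mediator lines in which HEXIM1 rose, and in the same lines under TMM. The gene (ENSG00000174720) lies at chr4:112636964-112657592 on the plus strand of hg38. In the MED14 line it had 71.4, 79.8 and 84.5 CPM with dTAG7, against 200.1, 226 and 203 CPM with DMSO. In the MED26 line it had 134, 144 and 145 CPM with dTAG7, against 203, 258 and 228 CPM with DMSO. The MED6 line had 133, 142 and 133 CPM with dTAG7, against 223, 200.1 and 214 CPM with DMSO. The dTAG7 libraries lay below the DMSO libraries in each of these lines, and furthest below in the MED14 line. The MED10 line had 155, 157 and 144 CPM with dTAG7, against 243, 233 and 228 CPM with DMSO, and the MED31 line 159.6, 162 and 169.7 CPM with dTAG7, against 235, 244 and 238 CPM with DMSO. LARP7 log2 fold changes were -1.42 ± 0.10 in the MED14 line, -0.71 ± 0.10 in the MED26 line, -0.64 ± 0.10 in the MED6 line, -0.63 ± 0.10 in the MED10 line and -0.54 ± 0.09 in the MED31 line, with edgeR adjusted p-values between 9.08e-19 and 0.000183. The MED6 call was lost when those 6 libraries were fitted by themselves (-0.64, edgeR adjusted p 0.0737). Under TMM the values were -0.74, -0.57, -0.36, -0.42 and -0.51 in the same order of lines, each called.

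In the MED28 line, where HEXIM1 also rose, LARP7 had 241, 242 and 248 CPM with dTAG7, against 285, 260.2 and 246 CPM with DMSO, and the groups overlapped (log2 fold change -0.11 ± 0.09, edgeR adjusted p 0.606). It was not called in the MED1 line (-0.02 ± 0.09), the MED12 line (0.19 ± 0.09) or wild-type cells with dTAG7 (0.11 ± 0.09). With dTAG7 in the CDK9 line LARP7 had 24.0, 25.9 and 31.2 CPM, against 219, 218 and 222 CPM with DMSO. Wild-type cells had 12.5, 14.9 and 17.97 CPM with dBET6 and 28.3, 25.8 and 31.9 CPM with THAL-SNS-032, against 235, 243 and 213 CPM with DMSO. Both treated groups lay far below DMSO, and dBET6 lay below THAL-SNS-032 in every library. The log2 fold changes were -3.04 ± 0.11 in the CDK9 line, -3.93 ± 0.11 with dBET6 and -3.01 ± 0.11 with THAL-SNS-032 (edgeR adjusted p 8.93e-34, 3.76e-39 and 5.51e-34). Most of this fall was shared with other transcripts, since under TMM the values were -0.22 ± 0.09, -0.36 ± 0.10 and -0.21 ± 0.09 (edgeR adjusted p 0.0374, 0.00154 and 0.0577). None of the 3 was called under median-of-ratios scaling (-0.10, -0.21 and -0.14, edgeR adjusted p 0.357, 0.0746 and 0.243).

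MEPCE, the enzyme that caps 7SK RNA, was called in 1 of the 8 Mediator lines, and it was lower on both scales when CDK9 or the BET proteins were targeted. The gene (ENSG00000146834) lies at chr7:100428790-100434126 on the plus strand of hg38. It had 2.07, 5.42 and 4.46 CPM with dTAG7 in the CDK9 line, against 78.8, 76.6 and 81.4 CPM with DMSO. Wild-type cells had 1.59, 3.44 and 4.29 CPM with dBET6 and 5.20, 3.67 and 10.2 CPM with THAL-SNS-032, against 86.5, 86.0 and 75.8 CPM with DMSO. No treated library came near a DMSO library. MEPCE log2 fold changes were -4.56 ± 0.22, -4.73 ± 0.20 and -3.80 ± 0.19 in the CDK9 line, with dBET6 and with THAL-SNS-032 (edgeR adjusted p 3.03e-28, 1.01e-30 and 3.26e-27), and under TMM they were -1.75 ± 0.24, -1.17 ± 0.23 and -1.01 ± 0.20, each called. After dTAG7 in the MED14 line MEPCE had 53.6, 50.6 and 57.5 CPM, against 70.3, 76.9 and 73.5 CPM with DMSO, a called fall of log2 -0.44 ± 0.15 (edgeR adjusted p 0.00789) that under TMM had the other sign and was not called (0.24 ± 0.14). In the other 7 Mediator lines the log2 fold changes were between -0.29 and 0.27 and none was called.

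**Figure D3:**
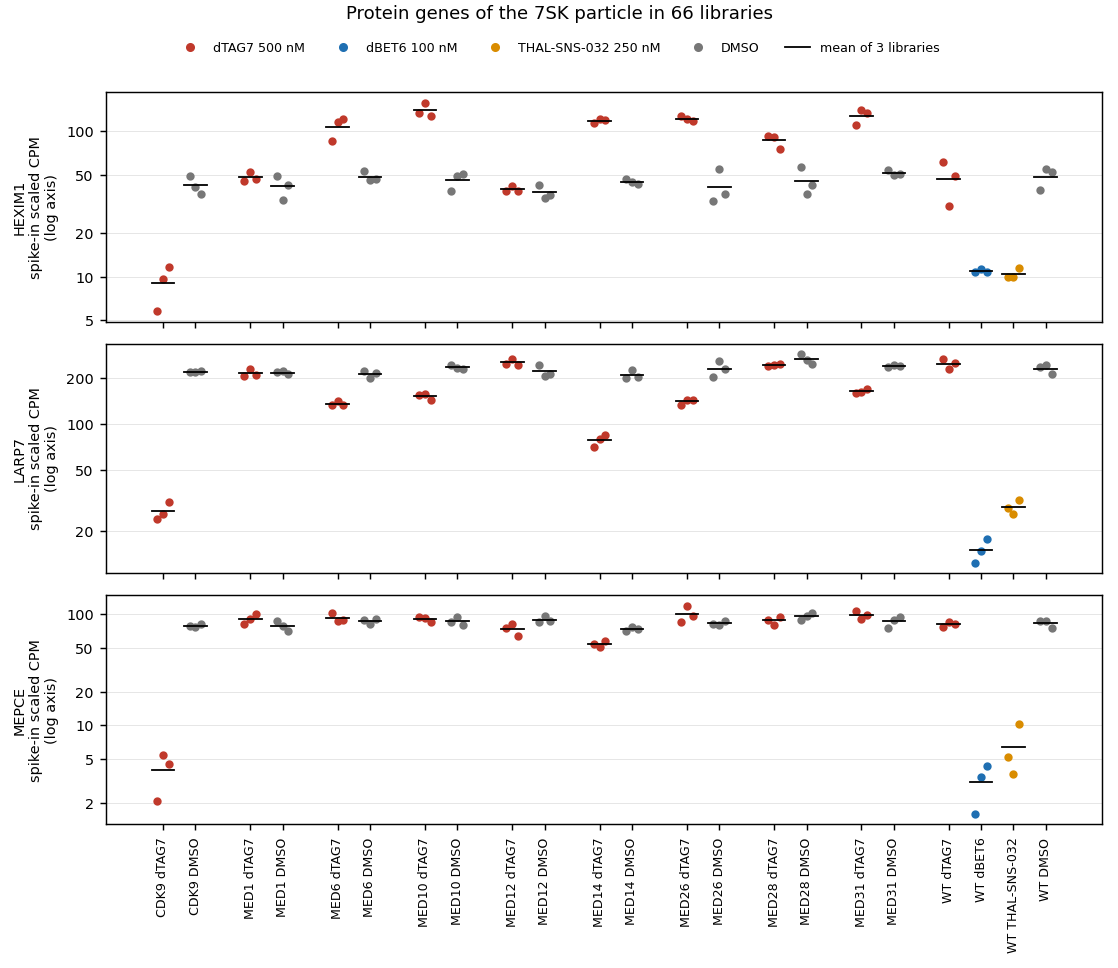
Spike-in scaled CPM on a log axis of HEXIM1, LARP7 and MEPCE in each of the 66 libraries (points), by line and treatment on the x axis, with the mean of 3 libraries as a line. HEXIM1 with dTAG7 was at 75.6 to 156 CPM in the MED6, MED10, MED14, MED26, MED28 and MED31 lines, above the 33.0 to 57.0 CPM of all DMSO libraries, while LARP7 was lowest among the Mediator lines in the MED14 line.

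CDK9 itself, the kinase subunit, was counted at a low level, with 10 to 45 counts and 3.92 to 16.6 CPM per DMSO library. In the CDK9 line its transcript had 4, 0 and 5 counts with dTAG7, against 10, 12 and 16 counts with DMSO. Scaled to spike-ins, the 9 counts with dTAG7 against 38 with DMSO correspond to 11.4% of the DMSO level (95% interval 4.86 to 24.1%, which covers counting error only). Wild-type cells had 0, 0 and 3 counts with dBET6 and 11, 6 and 8 counts with THAL-SNS-032, against 17, 24 and 23 counts with DMSO. The sum with dBET6 was 2.34% of DMSO (0.471 to 7.16%), and replicate C alone supplied its 3 counts. The fitted value of -5.16 with dBET6 was -7.66 without that library and is no measure of size. The fitted log2 fold changes, which rest on these few counts, were -3.06 ± 0.70 in the CDK9 line and -2.14 ± 0.52 with THAL-SNS-032 (edgeR adjusted p 5.86e-05 and 0.000125), and without CDK9 dTAG7 replicate C the first became -3.79. Under TMM no CDK9 change was called in any comparison, with values of -0.29 ± 0.72 in the CDK9 line, -1.83 ± 0.94 with dBET6 and 0.64 ± 0.50 with THAL-SNS-032. In the 8 Mediator lines the spike-in scaled log2 fold changes were between -0.19 and 0.52 and none was called.

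CCNT1, the cyclin that pairs with CDK9 in most P-TEFb, was lower in every library when CDK9 or the BET proteins were targeted. It had 4.68, 3.34 and 7.35 CPM with dTAG7 in the CDK9 line, against 68.0, 54.2 and 63.9 CPM with DMSO. In wild-type cells it had 2.12, 2.01 and 3.67 CPM with dBET6 and 6.34, 6.91 and 8.66 CPM with THAL-SNS-032, against 58.5, 65.0 and 65.3 CPM with DMSO. The 2 degraders did not overlap, with dBET6 the lower. CCNT1 log2 fold changes were -3.56 ± 0.16, -4.62 ± 0.17 and -3.11 ± 0.15 in the CDK9 line, with dBET6 and with THAL-SNS-032, all called, and under TMM -0.74 ± 0.17 and -1.07 ± 0.19 (called, edgeR adjusted p 0.000174 and 4.93e-06) and -0.31 ± 0.15 (edgeR adjusted p 0.109). In the Mediator lines CCNT1 was not called with dTAG7 on the spike-in scale (-0.09 to 0.25). Under TMM it was called higher in the MED6 line (0.53 ± 0.11), the MED10 line (0.44 ± 0.11) and the MED14 line (0.59 ± 0.11). On the spike-in scale its MED14 levels of 57.4, 67.6 and 56.8 CPM with dTAG7 overlapped the 63.5, 64.2 and 64.1 CPM with DMSO, while the median of all genes lay at -0.69.

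CCNT2, the other cyclin T, gave the same calls on the spike-in scale. It had 3.70, 2.92 and 3.94 CPM with dTAG7 in the CDK9 line, against 33.3, 22.9 and 32.7 CPM with DMSO. In wild-type cells it had 0.529, 1.00 and 3.27 CPM with dBET6 and 5.66, 3.10 and 5.86 CPM with THAL-SNS-032, against 30.2, 25.9 and 27.5 CPM with DMSO. Replicate C was the highest of the dBET6 libraries. CCNT2 log2 fold changes were -3.01 ± 0.26, -4.19 ± 0.29 and -2.59 ± 0.24 in the CDK9 line, with dBET6 and with THAL-SNS-032, all called on the spike-in scale and none under TMM (-0.18, -0.67 and 0.20, so that the last changed sign), and the dBET6 value was -5.08 without dBET6 replicate C. Under TMM CCNT2 was called higher in the MED14 line (0.67 ± 0.17, edgeR adjusted p 0.00132), where the spike-in scaled value was -0.01 ± 0.20.

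**Figure D4:**
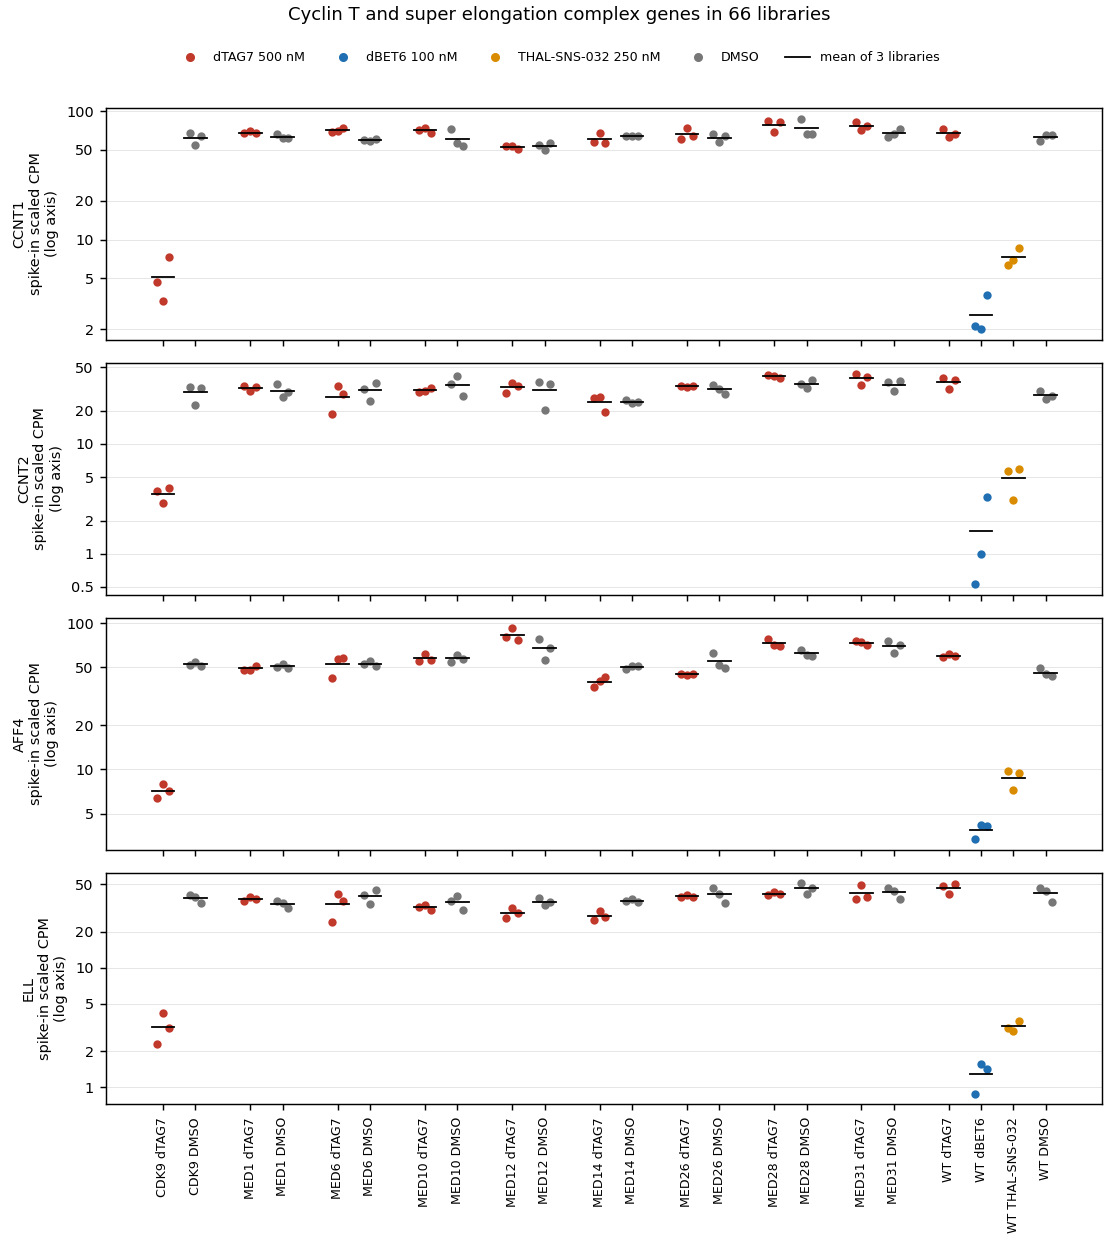
Spike-in scaled CPM on a log axis of CCNT1, CCNT2, AFF4 and ELL in each of the 66 libraries (points), by line and treatment on the x axis, with the mean of 3 libraries as a line. Libraries treated with dTAG7 in the CDK9 line, dBET6 or THAL-SNS-032 lay below their DMSO libraries for CCNT1 (2.01 to 8.66 CPM), and CCNT1 was called in none of the Mediator lines on this scale, though it was called higher under TMM in the MED6, MED10 and MED14 lines.

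Among the scaffolds of the super elongation complex, AFF4 had 6.43, 7.93 and 7.09 CPM with dTAG7 in the CDK9 line, against 52.0, 53.8 and 51.0 CPM with DMSO. Wild-type cells had 3.35, 4.16 and 4.08 CPM with dBET6 and 9.73, 7.19 and 9.43 CPM with THAL-SNS-032, against 49.4, 44.8 and 43.2 CPM with DMSO. The order was the same as for the cyclins, with dBET6 the lowest. AFF4 log2 fold changes were -2.91 ± 0.15, -3.55 ± 0.15 and -2.41 ± 0.14 in the CDK9 line, with dBET6 and with THAL-SNS-032, all called, against TMM values of -0.08, 0.01 and 0.39, of which the last, for THAL-SNS-032, was called higher (edgeR adjusted p 0.0363). In the MED14 line AFF4 had 36.4, 39.9 and 43.0 CPM with dTAG7, against 48.2, 50.6 and 50.9 CPM with DMSO (log2 fold change -0.33 ± 0.12, edgeR adjusted p 0.0105). That call was lost without MED14 dTAG7 replicate A (-0.26, edgeR adjusted p 0.085), and under TMM AFF4 was called higher there (0.35 ± 0.09). In wild-type cells AFF4 had 58.8, 61.6 and 59.5 CPM with dTAG7, against 49.4, 44.8 and 43.2 CPM with DMSO. These groups did not overlap, yet the change was not called (0.39 ± 0.12, edgeR adjusted p 0.992), and AFF4 was the single member with an unadjusted p under 0.05 in that comparison. The dTAG7 libraries lay above DMSO without overlap for 8.98% of all genes there, CCNT2 among them. In the MED12 line AFF4 had 79.7, 91.8 and 76.4 CPM with dTAG7, against 77.8, 55.8 and 67.8 CPM with DMSO. It was called under TMM (0.26 ± 0.09, edgeR adjusted p 0.0427) and not on the spike-in scale (0.30 ± 0.11, edgeR adjusted p 0.104), where leaving out MED12 DMSO replicate A gave a call (0.42, edgeR adjusted p 0.0276).

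AFF1, the other scaffold, had 4.03, 7.09 and 4.20 CPM with dTAG7 in the CDK9 line, against 31.1, 29.7 and 29.6 CPM with DMSO. In wild-type cells it had 1.94, 3.16 and 3.47 CPM with dBET6 and 4.98, 4.09 and 5.61 CPM with THAL-SNS-032, against 19.8, 32.9 and 25.7 CPM with DMSO. The treated and DMSO groups did not overlap on the spike-in scale. AFF1 log2 fold changes were -2.67 ± 0.25, -3.16 ± 0.26 and -2.42 ± 0.24 in the CDK9 line, with dBET6 and with THAL-SNS-032, called on the spike-in scale only, while the TMM values were 0.14, 0.40 and 0.38 and none was called. With the 12515 or 12973 genes fitted over all 22 groups AFF1 was not called in any Mediator line on either scale (spike-in scaled values between -0.35 and 0.43), while it was called lower in the MED14 line when its 6 libraries were fitted by themselves (-0.34, edgeR adjusted p 0.0482).

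ELL, an elongation factor of the complex, was lower on both scales when CDK9 or the BET proteins were targeted. It had 2.29, 4.17 and 3.15 CPM with dTAG7 in the CDK9 line, against 40.5, 38.9 and 35.2 CPM with DMSO. Wild-type cells had 0.881, 1.58 and 1.43 CPM with dBET6 and 3.17, 2.96 and 3.57 CPM with THAL-SNS-032, against 46.6, 43.9 and 36.0 CPM with DMSO. No treated library reached the DMSO range on either scale. ELL log2 fold changes were -3.71 ± 0.20, -4.97 ± 0.21 and -3.71 ± 0.19 in the CDK9 line, with dBET6 and with THAL-SNS-032, and ELL stayed called as lower under TMM (-0.89 ± 0.20, -1.43 ± 0.23 and -0.90 ± 0.18). In the MED14 line ELL had 25.0, 30.2 and 26.5 CPM with dTAG7, against 36.3, 37.5 and 35.6 CPM with DMSO (log2 fold change -0.44 ± 0.14, edgeR adjusted p 0.00672), with the other sign under TMM (0.24 ± 0.12, not called). In the MED6 line, where ELL was not called (-0.24), leaving out dTAG7 replicate B gave a call (-0.42, edgeR adjusted p 0.043).

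ELL2, a close relative of ELL, was the scarcest of the 10 genes beside CDK9, with 5 to 31 counts per DMSO library. In the MED10 line it had 22, 10 and 18 counts with dTAG7, or 7.38, 4.74 and 4.83 CPM, against 5, 7 and 8 counts and 2.35, 2.42 and 2.33 CPM with DMSO. The groups did not overlap, and ELL2 was called higher (log2 fold change 1.25 ± 0.44, edgeR adjusted p 0.0335; 1.45 ± 0.43 under TMM). The call was lost without dTAG7 replicate A (1.01, edgeR adjusted p 0.177) and without DMSO replicate A, B or C (1.24 to 1.26, edgeR adjusted p 0.0713 to 0.0917). The MED10 line had the lowest ELL2 mean of the 10 DMSO groups, 2.37 CPM. Its dTAG7 mean of 5.65 CPM lay within the range of the DMSO means, which reached 8.50 CPM in the MED31 line. In the CDK9 line ELL2 summed to 6 counts with dTAG7 against 21 with DMSO, which was 13.8% of the DMSO level after spike-in scaling (95% interval 4.55 to 35.3%). In wild-type cells the 9 counts with dBET6 and the 5 counts with THAL-SNS-032 against 45 with DMSO were 10.0% (4.30 to 20.7%) and 6.31% (1.95 to 15.8%). Its fitted log2 fold change in the CDK9 line was -2.73 ± 0.66, and it was -1.54 without dTAG7 replicate A and -3.42 without dTAG7 replicate B. Under TMM ELL2 was not called in the CDK9 line, with dBET6 or with THAL-SNS-032.

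As a group, the median log2 fold change of the 10 genes was -3.02 in the CDK9 line, -4.06 with dBET6 and -2.80 with THAL-SNS-032, near the all-gene medians of -2.93, -3.67 and -2.86. The MED14 line had a median over the 10 of -0.21, beside -0.69 for all genes. Under TMM edgeR called 5 of the 10 in the CDK9 line, beside 47.7% of 12973 genes, 5 with dBET6, beside 41.3%, and 4 with THAL-SNS-032, beside 29.8%. In the MED14 line TMM gave 4 called higher and 1 lower, beside 29.7% of genes called in either direction. The TMM counts were 3 in the MED6 line (6.44% of genes), 4 in the MED10 line (17.9%), 1 in the MED12 line (8.67%), 2 in the MED26 line (2.34%), 1 in the MED28 line (6.38%) and 2 in the MED31 line (4.46%). TMM left edgeR with 0 members in the MED1 line, beside 0.00771% of genes, and 0 members beside 0% for dTAG7 in wild-type cells.

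Whether the effect of dTAG7 differed among the 8 Mediator lines was tested with an F test on 7 contrasts, which called 46.2% of all genes on the spike-in scale and 12.4% under TMM. On both scales it called HEXIM1 (edgeR adjusted p 1.97e-07, and 6.28e-13 under TMM), LARP7 (1.06e-13 and 6.24e-09), MEPCE (0.0213 and 0.0307) and AFF4 (0.00595 and 0.0318). CCNT1 was called under TMM only (edgeR adjusted p 0.00907, against 0.537 on the spike-in scale). For CDK9, CCNT2, AFF1, ELL and ELL2 the test was not passed on either scale, with edgeR adjusted p-values of 0.946, 0.764, 0.0696, 0.27 and 0.249 on the spike-in scale.

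Setting each line's dTAG7 effect against that in wild-type cells tests the difference itself, and all 9 such contrasts share the wild-type libraries. The difference for HEXIM1 was 1.18 in the MED6 line, 1.61 in the MED10 line, 1.44 in the MED14 line, 1.59 in the MED26 line, 0.96 in the MED28 line and 1.34 in the MED31 line, each called. For LARP7 it was -0.75, -0.74, -1.53, -0.82 and -0.65 in the MED6, MED10, MED14, MED26 and MED31 lines, each called. Further calls were AFF1 (-0.66), AFF4 (-0.72) and ELL (-0.59) in the MED14 line, which under TMM had the other sign and were not called (0.12, 0.06 and 0.18), and AFF4 in the MED26 line (-0.68, against -0.44 and not called under TMM). Under TMM the LARP7 difference in the MED6 line was not called either (-0.38, edgeR adjusted p 0.0711). The wild-type values with dTAG7 that enter the AFF1, AFF4 and ELL differences were 0.31, 0.39 and 0.15, none of them called. In the MED26 line AFF4 itself was at -0.29 and not called. The background of such calls was 11.1% of genes for MED6, 14.7% for MED10, 57.7% for MED14, 1.36% for MED26, 1.88% for MED28 and 0.623% for MED31. No member differed from wild type in the MED1 line, beside 0% of genes, or in the MED12 line, beside 1.65%. The HEXIM1 call in the MED28 line was lost when MED28 DMSO replicate B or C, MED28 dTAG7 replicate A or B, wild-type DMSO replicate B or C or wild-type dTAG7 replicate B was left out, with values of 0.73 to 0.92 and edgeR adjusted p-values of 0.0506 to 0.122. In the CDK9 line all 10 differed from wild type, beside 94% of genes, with differences of -4.54 for MEPCE and -2.28 for HEXIM1, the HEXIM1 value being 0.62 and called higher under TMM.

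CDK9 was targeted in 2 ways, by dTAG7 in the tagged line and by THAL-SNS-032 in wild-type cells, at doses of 500 and 250 nM. The difference of the effects was called for 0 of the 10 genes (edgeR), beside 2.64% of all genes, and for 0 under TMM. It was -0.11 for HEXIM1 (95% interval -0.71 to 0.49), -0.02 for LARP7 (-0.32 to 0.27), -0.77 for MEPCE (-1.41 to -0.12) and -0.50 for AFF4 (-0.91 to -0.09). The intervals for MEPCE and AFF4 lay below 0 before adjustment over all genes (edgeR adjusted p 0.185 for both).

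The 2 compounds given to wild-type cells were compared directly, at 100 nM dBET6 and 250 nM THAL-SNS-032, so the doses differ. On the spike-in scale 8 of the 10 genes were lower with dBET6 than with THAL-SNS-032, beside 53.8% of all genes called in either direction. The median difference of all genes was -0.82. CDK9 differed by -3.02 (95% interval -4.90 to -1.13), a value that rests on 0, 0 and 3 counts with dBET6 against 11, 6 and 8 with THAL-SNS-032. The other log2 differences were -1.61 for CCNT2, -1.50 for CCNT1, -1.26 for ELL, -1.14 for AFF4, -0.93 for MEPCE, -0.92 for LARP7 and -0.74 for AFF1, of which AFF1 had the other sign under TMM (0.02). HEXIM1 was not called, at 0.09 ± 0.22 (95% interval -0.35 to 0.52), nor was ELL2 at 0.60 (-1.01 to 2.21). Under TMM, with 4.62% of genes called, HEXIM1 was higher with dBET6 than with THAL-SNS-032 (0.85 ± 0.19, edgeR adjusted p 0.00412), CCNT1 was lower (-0.76 ± 0.22, edgeR adjusted p 0.0456), and no other member was called.

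Among the DMSO groups AFF4 was the member called in tagged lines against wild type. The tagged lines were not tested against each other, and wild type had the lowest AFF4 mean of the DMSO groups (45.8 CPM). HEXIM1 ranged from 33.0 to 57.0 CPM over the 30 DMSO libraries (median 45.3) and LARP7 from 200.1 to 285 CPM (median 224). MEPCE had 70.3 to 103 CPM, CCNT1 50.0 to 87.2, AFF4 43.2 to 77.8, ELL 30.3 to 51.0, CCNT2 20.2 to 41.7, AFF1 15.4 to 37.3 and ELL2 1.69 to 9.88 CPM. Against wild-type DMSO only AFF4 was called, higher in the DMSO of the MED12 line (log2 difference 0.55), the MED28 line (0.44) and the MED31 line (0.59), beside 10.5%, 1.94% and 8.29% of genes. Under TMM AFF4 was called in the MED12 and MED31 lines (0.57 and 0.51) and in the MED14 line (0.32), and not in the MED28 line (0.20). No member was called between the DMSO of the other lines and wild type, where 1.73% of genes were called for CDK9, 0.408% for MED1, 0.408% for MED6, 0.32% for MED10, 10.4% for MED14 and 0.919% for MED26. All 9 of these contrasts share the wild-type DMSO libraries.

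The spike-in scaled levels of HEXIM1 fell into 3 separate ranges over the 22 groups. The highest were dTAG7-treated MED10 (mean 139 CPM), MED31 (127), MED26 (121), MED14 (118), MED6 (107) and MED28 (86.2), and each overlapped the next in its libraries. Below a gap came the 10 DMSO groups with the dTAG7 groups of the MED1 line, the MED12 line and wild-type cells, all between 38.0 and 51.7 CPM and each overlapping the next. After a second gap followed dBET6 (10.97 ± 0.32 CPM, SD), THAL-SNS-032 (10.4 ± 0.90) and dTAG7 in the CDK9 line (8.97 ± 2.94), which overlapped. Under TMM the order was headed by dTAG7 in the MED14 line (209 CPM), above MED10 (149), MED26 (131) and then dBET6 (127), whose libraries overlapped those of MED26.

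Among other regulators of P-TEFb, a list of 13 genes, BRD2, a BET bromodomain protein, was called higher in 5 Mediator lines, and the others called on the spike-in scale were lower. Of the 13, the counts called higher and lower on the spike-in scale were 1 and 8 in the MED6 line, 1 and 7 in the MED10 line, 0 and 2 in the MED12 line, 1 and 11 in the MED14 line, 1 and 3 in the MED26 line, 0 and 2 in the MED28 line and 1 and 3 in the MED31 line. Of all genes 18.4%, 19%, 3.4%, 63.3%, 2.88%, 4.07% and 2.61% were called lower in these lines. Under TMM the counts were 1 and 3 in the MED6 line, 1 and 4 in the MED10 line, 0 and 3 in the MED12 line, 2 and 5 in the MED14 line, 1 and 2 in the MED26 line, 1 and 2 in the MED28 line and 1 and 3 in the MED31 line, beside 6.44%, 17.9%, 8.67%, 29.7%, 2.34%, 6.38% and 4.46% of all genes called in either direction. All 13 were called lower with dTAG7 in the CDK9 line, with dBET6 and with THAL-SNS-032, close to the background of 95.3%, 97.1% and 96.2%, while under TMM 5 were called higher and 3 lower in the CDK9 line, 5 and 5 with dBET6 and 5 and 3 with THAL-SNS-032, beside 47.7%, 41.3% and 29.8% called in either direction. The median of the list was -0.81 in the MED14 line, beside -0.69 for all genes. On the spike-in scale the gene called higher was BRD2 each time. Its mean levels were 66.7 CPM with dTAG7 against 34.3 CPM with DMSO in the MED10 line (log2 fold change 0.96 ± 0.15). They were 59.6 against 33.6 CPM in the MED26 line (0.83 ± 0.15) and 63.4 against 40.0 CPM in the MED6 line (0.67 ± 0.15). The MED31 line had 63.0 against 41.1 CPM (0.61 ± 0.15) and the MED14 line 41.6 against 30.8 CPM (0.45 ± 0.15). In the MED28 line BRD2 was at 0.47 ± 0.15 (edgeR adjusted p 0.0577). DDX21, an RNA helicase that acts on the 7SK particle, averaged 276 CPM with dTAG7 against 854 CPM with DMSO in the MED14 line (-1.63 ± 0.10) and was lower in the MED10 line (-1.12 ± 0.10), as it was under TMM (-0.95 and -0.92). On the spike-in scale DDX21 was also called lower in the MED12 (-0.84), MED28 (-0.63), MED31 (-0.44) and MED26 (-0.41) lines. In the CDK9 line DDX21 was lower on the spike-in scale (-2.15 ± 0.10) and higher under TMM (0.67 ± 0.07). SYNCRIP, an RNA-binding protein, averaged 157 CPM with dTAG7 against 451 CPM with DMSO in the MED14 line (-1.53 ± 0.10). Smaller called falls of SYNCRIP were seen in the MED6 (-0.65), MED26 (-0.52), MED28 (-0.40), MED31 (-0.39) and MED12 (-0.31) lines. HEXIM2, the paralogue of HEXIM1, was scarce, with a mean of 0.124 CPM with dTAG7 in the CDK9 line against 3.199 CPM with DMSO (-4.19 ± 0.83, and -1.64 and not called under TMM).

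A list of 11 other subunits of super and little elongation complexes had 8 genes in the count table, and none of the 8 was called higher on the spike-in scale in the 12 comparisons. AFF2, AFF3 and ELL3 were not analysed here. All 8 were called lower in the CDK9 line, with dBET6 and with THAL-SNS-032, where 95.3%, 97.1% and 96.2% of all genes were. In the MED14 line 7 were called lower, beside 63.3% of all genes, in the MED10 line 3, beside 19%, and in the MED6 line 2, beside 18.4%. Under TMM 2 were called lower in the MED14 line and none higher, beside 29.7% of genes called in either direction, and in the CDK9 line 5 were lower and 1 higher, beside 47.7%. MLLT1, a reader of acetylated histones in the complex, averaged 25.4 CPM with dTAG7 against 62.8 CPM with DMSO in the MED14 line (log2 fold change -1.29 ± 0.16). MLLT3, its relative, averaged 25.1 CPM with dTAG7 against 41.8 CPM with DMSO in the MED6 line (-0.75 ± 0.18). The list median in the MED14 line was -0.88, below the -0.69 of all genes.

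From a list of 20 genes of pausing and pause release, POLR2A, the largest subunit of RNA polymerase II, was the gene called higher in 6 Mediator lines, and these were the 6 lines in which HEXIM1 rose. Its mean level with dTAG7 was 896 CPM against 375 CPM with DMSO in the MED26 line, 1010 against 435 CPM in the MED31 line, 909.8 against 436 CPM in the MED10 line, 821 against 430.0 CPM in the MED14 line, 788 against 429 CPM in the MED6 line and 747 against 473 CPM in the MED28 line. These are log2 fold changes of 1.26, 1.22, 1.06, 0.93, 0.88 and 0.66, each with an SE of 0.14. Of the other 19, called lower were 17 in the MED14 line, 5 in the MED10 line, 5 in the MED6 line and 0 in the MED26, MED28 and MED31 lines, beside 63.3%, 19%, 18.4%, 2.88%, 4.07% and 2.61% of all genes. All 20 were called lower in the CDK9 line, with dBET6 and with THAL-SNS-032, again near the background of 95.3%, 97.1% and 96.2%. Under TMM 4 of the 20 were called higher and 3 lower in the MED14 line, beside 29.7% called in either direction, and 3 and 7 in the CDK9 line, beside 47.7%. NELFA, a subunit of the pausing factor NELF, averaged 30.8 CPM with dTAG7 against 79.8 CPM with DMSO in the MED14 line (-1.37 ± 0.16) and 2.20 against 82.4 CPM in the CDK9 line (-5.43 ± 0.24). PAF1, of the elongation complex named after it, averaged 2.77 CPM with dTAG7 against 58.1 CPM with DMSO in the CDK9 line (-4.52 ± 0.21). Unlike HEXIM1, POLR2A did not change under TMM with dTAG7 in the CDK9 line, dBET6 or THAL-SNS-032 beyond its error (-0.03 ± 0.10, 0.05 ± 0.10 and -0.02 ± 0.10), and BRD2 was lower (-1.22 ± 0.29, -0.70 ± 0.28 and -0.30 ± 0.23, the first 2 called).

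**Figure D5:**
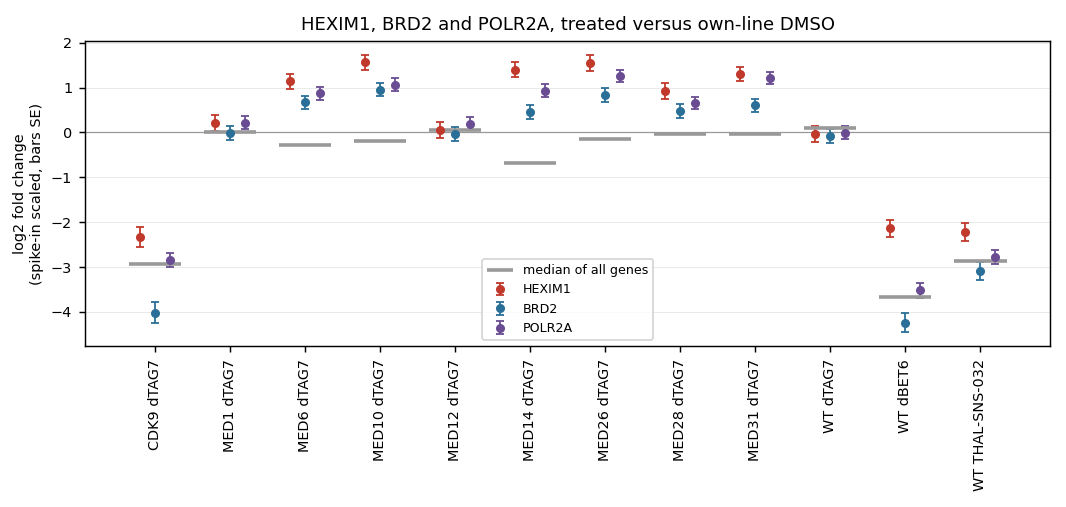
Spike-in scaled log2 fold change (y axis, bars SE) of HEXIM1, BRD2 and POLR2A in the 12 comparisons of a treatment with its own line's DMSO (x axis), with bars at the median of all genes. POLR2A and HEXIM1 were called higher in the same 6 Mediator lines (0.66 to 1.57). All 3 genes were below 0 with CDK9 or BET proteins targeted (-2.13 to -4.24), where HEXIM1 turned above 0 under TMM.

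As a description of likeness, log2 fold changes over the 12 comparisons were correlated between genes with a mean of at least 5 CPM. 3 of the 12 share the wild-type DMSO libraries. On the TMM scale the 5 genes most like HEXIM1 were AC027020.2 (Pearson r 0.900), ZMAT1 (0.898), PBLD (0.880), DNAJB6 (0.874) and FSTL1 (0.865). LARP7 ran opposite to HEXIM1 on that scale, with r = -0.917, and the genes most like LARP7 were COQ7 (0.936), TMBIM4 (0.933), MAP3K5 (0.917), MRPL16 (0.916) and NBN (0.912). On the spike-in scale, where the shared fall dominates, HEXIM1 and LARP7 gave r = 0.767, and POLR2A (0.979), ZMAT1 (0.974), PAQR8 (0.970), BRD2 (0.967) and AC025181.2 (0.967) were most like HEXIM1. Only ZMAT1 among the 5 genes nearest HEXIM1, and TMBIM4 among the 5 nearest LARP7, appeared on both scales. ZMAT1 had differences of mean log2 CPM under TMM of 1.84 in the MED14 line, 1.51 in the MED26 line, 1.33 with dBET6 and 0.64 in the MED12 line.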

How the data were processed

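RNA was measured by QuantSeq in 66 libraries, made from 350 ng RNA and read as 50 bp single reads, per the labels' protocols. Raw counts for genes and spike-ins (37 ERCC, 7 SIRV) were deposited by the authors; the submitters' processing notes name hg38, STAR 2.5.2b, HTSeq 0.6.0 and bedtools 2.26.0 without order or settings, so whether counting used strand is not given in the sources used here. Genes antisense to the 3' ends of HEXIM1 and ELL (AC138150.1 and AC010335.1) therefore cannot be told apart from them. The authors' second deposited table holds loess-normalized signal values, used only as an alternative. The deposited count table holds no gene under 70 counts in all.

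Counts were tested with edgeR 4.0.16 (R 4.3.3). Library sizes were spike-in totals multiplied by 126.333, the median ratio of endogenous to spike-in counts in the 30 DMSO libraries. The filterByExpr filter (minimum count 10) left 12515 genes. Quasi-likelihood F tests used 22 group means with 44 residual degrees of freedom, followed by Benjamini-Hochberg adjustment. The SE was taken as the absolute log2 fold change over the square root of the F statistic, and 95% intervals are t intervals from it. TMM factors gave 12973 genes. Likeness used a prior count of 2. Intervals on count sums are exact binomial, and endogenous to spike-in ratios were compared by a two-sided exact permutation test, whose smallest p with 3 against 3 libraries is 0.1, which 8 of the 12 comparisons reached (adjusted 0.15). Alternatives were TMM and median-of-ratios scaling, no count filter, the replicate letter as a block, each comparison's 6 libraries fitted by themselves, DESeq2 1.42.0, limma 3.58.1 on log2 of the loess values plus 1, ERCC without SIRV spike-ins and leaving out each library.

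Replicate libraries differed by more than sampling noise (chi-square per degree of freedom 1.34 to 18.5). Names and positions came from GENCODE 29, and 250-base promoter windows from RefSeq (GRCh38.p14), where 9 of the 10 genes matched and ELL2 did not. The 10 genes and the pathway lists were chosen with earlier results of these data known. Named genes were the 10 members, up to 2 falling and 2 rising genes per list and comparison with the largest change among those called and not overlapping between groups, of which the text gives some, and the 5 genes most like HEXIM1 or LARP7. The DDX21 value under TMM in the CDK9 line and the HEXIM1 share of endogenous counts were added after values were seen. The scripts were tested on simulated data. Plots were made with Python 3.11.15 and matplotlib 3.10.9.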

Additional observations from a re-analysis of the deposited data

Results flagged for a closer look

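The effect of dTAG7 differed among the 8 Mediator lines for 4 of the 10 genes in an F test on the spike-in scale. That test called 46.2% of all genes, so the count was close to the background. The edgeR adjusted p was 1.97e-07 for HEXIM1, 1.06e-13 for LARP7, 0.0213 for MEPCE and 0.00595 for AFF4.

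The effect of dTAG7 in a tagged line also differed from that in wild-type cells in 25 cases, given as log2 differences of effects on the spike-in scale. All were called by edgeR after Benjamini-Hochberg adjustment, and all rest on the same 6 wild-type libraries. The share of all genes called was 94% for CDK9 and 57.7% for MED14. It was 14.7% for MED10, 11.1% for MED6, 1.88% for MED28, 1.36% for MED26 and 0.623% for MED31. HEXIM1 differed by 1.18 in the MED6 line, 1.61 in the MED10 line, 1.44 in the MED14 line, 1.59 in the MED26 line, 0.96 in the MED28 line and 1.34 in the MED31 line. LARP7 differed by -0.75 in the MED6 line, -0.74 in the MED10 line, -1.53 in the MED14 line, -0.82 in the MED26 line and -0.65 in the MED31 line. AFF1 differed by -0.66, AFF4 by -0.72 and ELL by -0.59 in the MED14 line, and AFF4 by -0.68 in the MED26 line. Under TMM these MED14 differences had the other sign and were not called. The AFF4 difference in the MED26 line and the LARP7 difference in the MED6 line were not called under TMM either. In wild-type cells dTAG7 gave uncalled values of 0.31 for AFF1, 0.39 for AFF4 and 0.15 for ELL, which enter these differences. In the MED26 line AFF4 itself was at -0.29 and not called. In the CDK9 line the differences were -2.28 for HEXIM1, which was 0.62 under TMM, -3.15 for LARP7, -4.54 for MEPCE, -3.35 for CDK9, -3.66 for CCNT1, -3.39 for CCNT2, -2.98 for AFF1, -3.30 for AFF4, -3.86 for ELL and -2.68 for ELL2.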

How the results depend on the processing

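Scaling was the choice that turned directions. Under TMM HEXIM1 was at 0.48 in the CDK9 line, 1.44 with dBET6, 0.59 with THAL-SNS-032 and 0.62 for the CDK9 line minus wild type, and under median-of-ratios at 0.60, 1.60, 0.67 and 0.75. Other members that changed sign under TMM were AFF1 in the CDK9 line (0.14); MEPCE (0.24), CCNT1 (0.59), CCNT2 (0.67), AFF4 (0.35) and ELL (0.24) in the MED14 line; AFF1 (0.40), AFF4 (0.0077) and ELL2 (0.25) with dBET6; and CDK9 (0.64), CCNT2 (0.20), AFF1 (0.38) and AFF4 (0.39) with THAL-SNS-032. Under median-of-ratios they were AFF1 (0.26), AFF4 (0.031) and ELL2 (0.11) in the CDK9 line, MEPCE (0.28), CCNT1 (0.63), CCNT2 (0.71), AFF4 (0.39) and ELL (0.28) in the MED14 line, AFF1 (0.55), AFF4 (0.16) and ELL2 (0.40) with dBET6, and CDK9 (0.72), CCNT2 (0.28), AFF1 (0.46) and AFF4 (0.46) with THAL-SNS-032. Members called numbered 5, 5 and 4 under TMM and 4, 4 and 4 under median-of-ratios in the CDK9 line, with dBET6 and with THAL-SNS-032, and 1 in the MED12 line under either. Genes called under TMM numbered 6194 in the CDK9 line, 1 in the MED1 line, 835 in the MED6 line, 1125 in the MED12 line, 3855 in the MED14 line, 5364 with dBET6 and 3871 with THAL-SNS-032, against 11961, 0, 2406, 622, 8131, 12203 and 12077 on the spike-in scale. The HEXIM1 difference of dBET6 minus THAL-SNS-032 became called, at 0.85 under TMM and 0.93 under median-of-ratios. With the 6 MED6 libraries fitted by themselves HEXIM1 was at 1.14 (edgeR adjusted p 0.0544) and 0 members were called, while AFF1 became called in the MED14 line when fitted in this way (-0.34, adjusted p 0.0482). MEPCE in the MED14 line (-0.45, adjusted p 0.0647) and ELL2 in the MED10 line (1.02, adjusted p 0.0557) lost their calls in limma. Leaving out 1 library gave 0 to 1 members called in the MED12 line and a HEXIM1 difference of MED28 minus wild type of 0.73 to 1.21. The cause of these changes was not tested. The replicate letters did not pair the libraries, since deviations of same-lettered libraries correlated between -0.362 and 0.0926, and with the letter as a replicate block no call or direction changed (HEXIM1 1.40 in the MED14 line). Low counts limit CDK9 and ELL2.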
